A study of Sus scrofa with 92 samples.

Results

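The liver response of carbohydrate prefed pigs at 2 hours of full resuscitation was read from 10 of the 92 RNA-seq libraries of the study. These were the Baseline (B) and the 2 hour (FR2) libraries of the 5 carbohydrate prefed (CPF) animals, chosen by the fed status and time point in the labels and paired by the animal code in the sample titles, which gave 5 pairs. All were Yorkshire-Landrace pigs, described in the study as juvenile males, which had been fasted overnight and then given a bolus of diluted sugar syrup before induction, and the 18 fasted (FS) animals differed in that they had no syrup. Every animal of both groups was instrumented and splenectomized, received a blunt injury to the chest from a captive bolt, was bled into shock and had the liver crushed with a clamp, was given lactated Ringer's fluid in a period of limited resuscitation, and was then fully resuscitated with fluid, its own shed blood and ventilator support. The Baseline biopsy was cut from the edge of the liver once the animal had stabilized from instrumentation, so it is liver of an operated animal before trauma, and surgery, trauma, shock, resuscitation and the hours since the syrup cannot be told apart in a difference between FR2 and B. The labels count the 2 hours from the start of resuscitation. The CPF animals are numbered 1 to 5 below. The labels record that animals 2 and 3 died and that the other 3 lived.

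The liver answers hemorrhage and reperfusion on several levels at once. Ischemic and reperfused cells transcribe immediate early genes, heat shock proteins and targets of hypoxia inducible factor. Cytokines of the interleukin 6 family, acting through receptors that share the gp130 chain and through the transcription factor STAT3, switch hepatocytes to making acute phase proteins. Insulin and dietary sugar act on the same cells in the other direction to fasting, through FOXO1 and the enzymes of glycogen and fat storage, and FOXO1 is a driver of glucose output when insulin is low.

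The 10 libraries held between 8444057 and 13839006 counts. They were liver by their markers. Albumin, the main secreted protein of hepatocytes, stood at 104023, 94896, 130881, 167414 and 140845 CPM (counts scaled to a common library size) in animals 1 to 5 at B and at 70304, 74111, 109075, 140988 and 95157 CPM at FR2, and the 8 skeletal muscle markers matched (ACTA1 and MYH1 among them) together made up at most 2.72 CPM in any of the 10 libraries. Each library has 1 biopsy behind it, and in a piece of whole liver fewer cells of a type and less RNA per cell cannot be told apart.

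Of 11779 genes tested in the 19 usable CPF libraries, 628 were called at an adjusted p under 0.05 and a fold change of at least 2 in either direction, which is 5.33% of those tested. Of these, 342 (2.90% of the genes tested) were higher at FR2 and 286 (2.43%) were lower. The test was edgeR's quasi-likelihood test with a term for each animal and Benjamini-Hochberg adjustment, and log2 fold changes are FR2 minus B with their standard errors (SE). Each SE was worked back as the size of the log2 fold change divided by the square root of the test's F statistic. It is therefore approximate, above all for changes near 0. The rises were larger than the falls: the median log2 fold change was 1.55 among genes called up and -1.33 among genes called down, and 93 genes rose by at least 2 on the log2 scale whereas 33 fell by as much. Over all genes tested the median was -0.02. Of the 342, 308 were higher in 5 of 5 animals, and of the 286, 271 were lower in 5 of 5. The genes were called on these same 5 pairs, so the selection favors such agreement and it is no independent support. All 5 FR2 libraries lay above all 5 Baseline libraries for 182 of the genes called up, and all 5 lay below for 185 of the genes called down. Over all genes tested, called or not, the groups were separated upwards in 4.06% and downwards in 4.19%. The number of calls depended on single animals: it was 203 without animal 1, 399 without animal 2 and 119 without animal 5, against 723 without animal 3 and 548 without animal 4. Of the 628 genes, between 618 and 622 could still be tested when 1 animal was left out, and each of those kept its direction with an unadjusted p under 0.05. The 628 were selected with all 5 animals, so this was largely set by the selection and is no independent support. Calls of single genes were often lost. Of 151 called genes in the table of named genes 78 were lost without animal 1, 53 without animal 2 and 96 without animal 5.

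**Figure D1:**
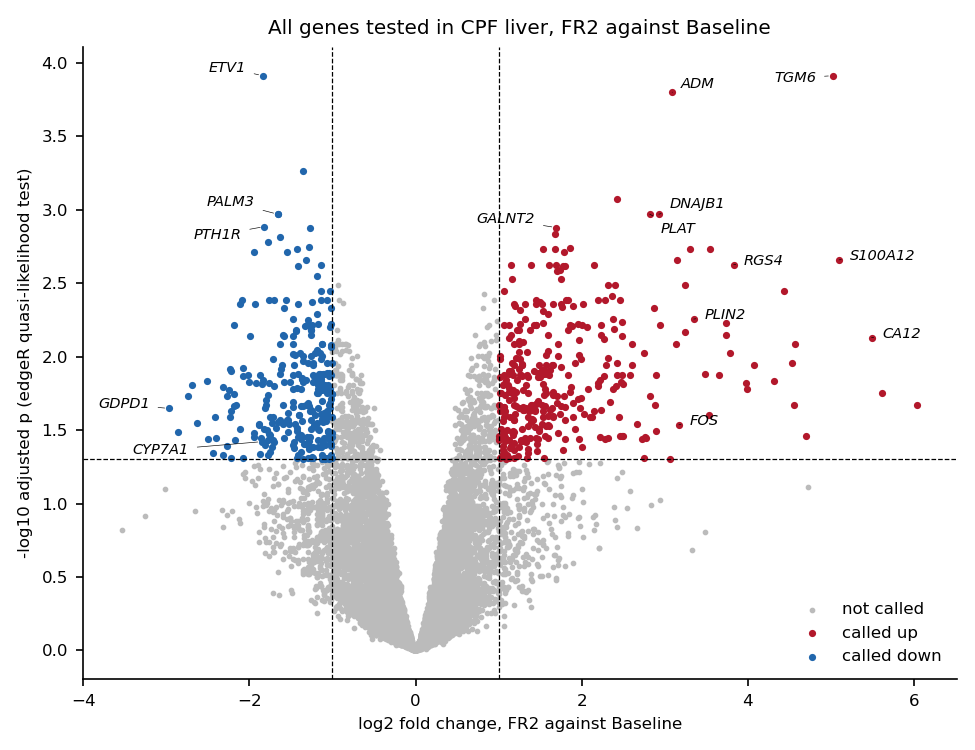
Each point is 1 of the 11779 genes tested in CPF liver, with the log2 fold change of FR2 against Baseline on the x axis and the negative log10 of the adjusted p on the y axis; dashed lines mark the fold change of 2 and the adjusted p of 0.05. The 342 genes called up reach further from 0 than the 286 called down.

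The 5 animals did not respond to the same extent. The median change of the 342 genes called up was 1.71, 1.44, 0.69, 1.75 and 1.92 on the log2 scale in animals 1 to 5, and that of the 286 genes called down was -1.41, -1.08, -0.87, -1.53 and -1.63. Animal 3 therefore moved least in both directions. It also moved least over all genes tested, where the median absolute change was 0.30 in animal 3, 0.39 in animal 2 and 0.49 to 0.55 in the other 3. At Baseline, animal 3 already had the highest level of the 5 animals for 148 of the 342 genes called up, while over all genes tested it was the highest at Baseline for 20.1%.

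Of the rises whose symbol does not differ between sources, the smallest p belonged to ADM (ENSSSCG00000013408), which encodes adrenomedullin, a vasodilator peptide and hypoxia target. It was 2.54, 8.85, 9.9, 7.24 and 4.67 CPM in animals 1 to 5 at B and 30.6, 68.3, 60, 57.4 and 49 CPM at FR2. Every FR2 library was above every Baseline library, and the log2 fold change was 3.09 (SE 0.33, adjusted p = 0.000158). PLAT (ENSSSCG00000007032), the gene of tissue plasminogen activator, went from 2.65, 17.7, 38.3, 11.9 and 7 CPM to 49.2, 123, 151, 66 and 58.2 CPM, again without overlap, with a log2 fold change of 2.82 (SE 0.37, adjusted p = 0.00107). SLC39A14, a zinc and iron importer that interleukin 6 induces in liver, was abundant at B with 249.7, 239, 197, 284 and 231 CPM and reached 885, 693, 346, 941 and 1099 CPM at FR2. Its groups were separated as well, animal 3 rising least, and its log2 fold change was 1.68 (SE 0.23, adjusted p = 0.00146).

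GALNT2, an enzyme that starts O-linked glycosylation, rose by 1.69 (SE 0.23, adjusted p = 0.00132), and PLEKHA1, an adaptor that binds phosphoinositides, by 1.86 (SE 0.27, adjusted p = 0.00182). HIST1H1D, a linker histone gene, went from 12.5 ± 10 CPM (mean ± SD, n = 5) to 61.9 ± 27.2 CPM and rose by 2.43 (SE 0.30, adjusted p = 0.00084). Among genes with a symbol and a mean of at least 5 CPM, the 8 with the largest rises included RGS4, a brake on G protein signaling, at 3.83 (SE 0.59, adjusted p = 0.00236), and RAB30, a Golgi GTPase, at 3.74 (SE 0.73, adjusted p = 0.00716). For RGS4 the Baseline library of animal 3, at 25 CPM, was above the FR2 library of animal 4, at 13.6 CPM, so its groups overlapped. FGF23, a hormone of phosphate balance that bone normally makes, was at or below 0.221 CPM in 4 Baseline libraries and at 13.9 CPM in that of animal 3, and it was 5.41, 24.7, 24.7, 23.5 and 9.33 CPM at FR2, with a log2 fold change of 4.56 (SE 1.14, adjusted p = 0.0214). ATP6V0D2, a subunit of the proton pump of lysosomes, rose by 3.98 (SE 0.92, adjusted p = 0.0152), SDCBP2 by 3.79 (SE 0.78, adjusted p = 0.00946) and NETO2 by 3.74 (SE 0.69, adjusted p = 0.00593). The gene annotated as TGM6 in one source of symbols and as TGM3 in the other, a transglutaminase in either case, rose from at most 1.96 CPM to between 10.5 and 70.1 CPM.

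Among the falls the smallest p belonged to ETV1 (ENSSSCG00000024591), a transcription factor of the ETS family. It was 28.2, 19.6, 15.6, 27.4 and 22.2 CPM at B and 6.18, 9.5, 4.52, 6.08 and 5.55 CPM at FR2, the groups did not overlap, and the log2 fold change was -1.84 (SE 0.19, adjusted p = 0.000122). PALM3, a membrane-bound protein of the paralemmin family, was 52.6, 49.4, 49.2, 50.5 and 59.6 CPM at B and 11.1, 17.2, 17.7, 17.6 and 19.9 CPM at FR2, a log2 fold change of -1.66 (SE 0.22, adjusted p = 0.00107). PTH1R, the receptor for parathyroid hormone, was 46.1, 26.8, 26.4, 43.6 and 32 CPM at B and 12.3, 4.14, 12.9, 12.8 and 8.32 CPM at FR2, a log2 fold change of -1.82 (SE 0.24, adjusted p = 0.0013). All 3 genes were separated between the groups.

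The other falls with the smallest p included PGM5, a protein of cell-matrix junctions related to phosphoglucomutase, at -1.66 (SE 0.22, adjusted p = 0.00107), ABCA3, a lipid transporter, at -1.63 (SE 0.23, adjusted p = 0.00154), ISLR, a secreted protein of mesenchymal cells, at -1.27 (SE 0.17, adjusted p = 0.00132), and FN3KRP, a kinase that acts on glycated proteins, at -1.28 (SE 0.18, adjusted p = 0.00178). Under the same limit of 5 CPM, the 8 largest falls included the calcium pump gene ATP2B2 at -2.09 (SE 0.36, adjusted p = 0.00411), DCPS, a scavenger decapping enzyme, at -1.99 (SE 0.39, adjusted p = 0.00722), NREP at -1.95 (SE 0.29, adjusted p = 0.00194), and VIPR1, a receptor for vasoactive intestinal peptide, at -1.85 (SE 0.43, adjusted p = 0.0154).

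**Figure D2:**
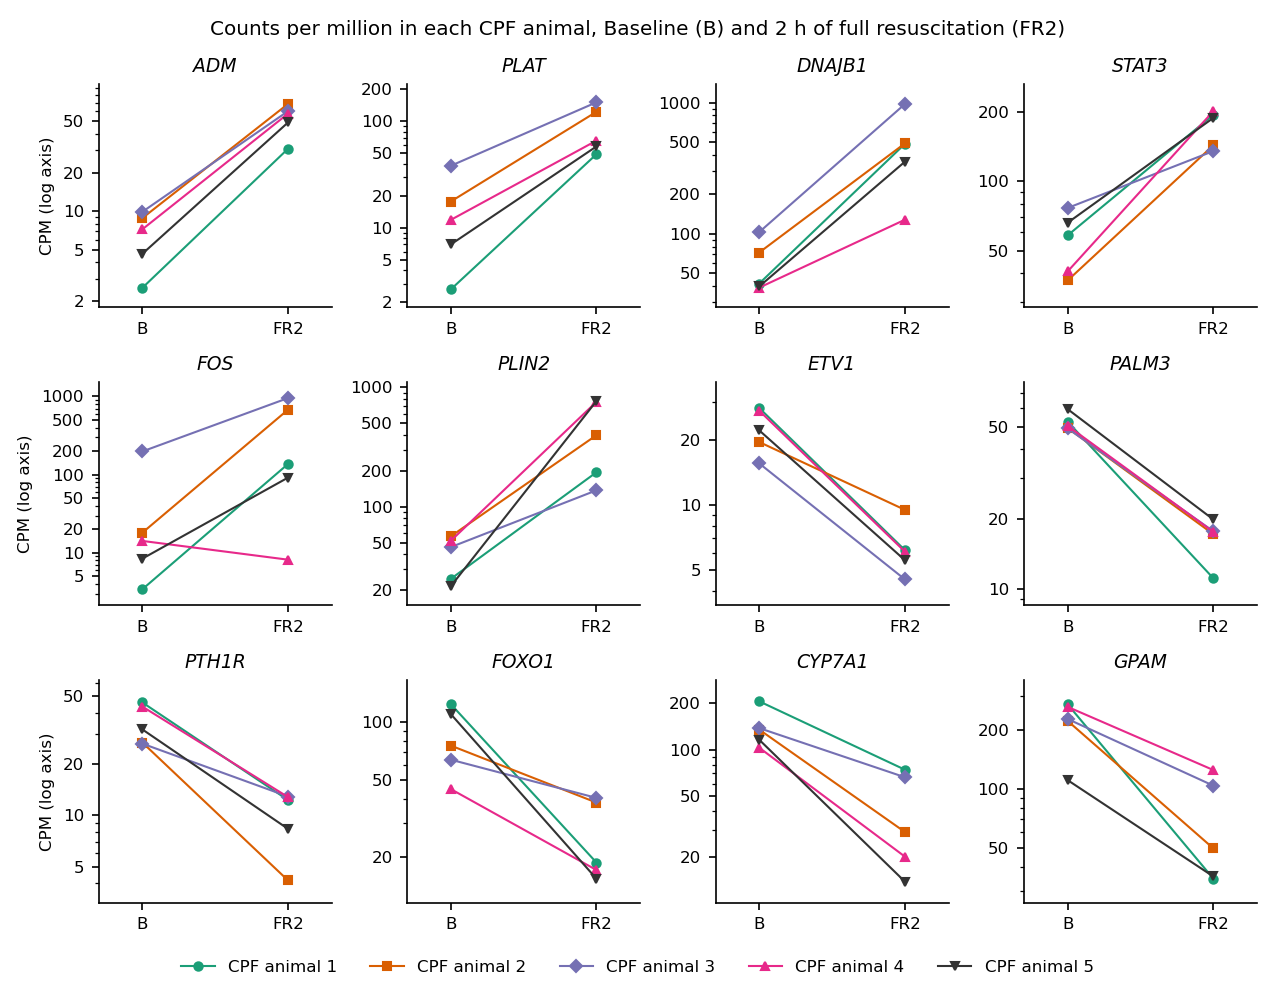
Each panel is 1 gene, with CPM on a log axis against the time point, and each line joins the Baseline and FR2 libraries of 1 CPF animal. ADM, PLAT, DNAJB1, STAT3 and PLIN2 rose in 5 of 5 animals and ETV1, PALM3, PTH1R, FOXO1, CYP7A1 and GPAM fell in 5 of 5, while FOS rose in 4 of 5.

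Of 27 tested immediate early genes, which are transcribed within minutes of a stimulus, 9 were called up and none was called down, all 27 had a log2 fold change above 0, and their median was 1.27 beside -0.02 over all genes tested. FOS, a subunit of the AP-1 transcription factor, was 3.42, 18.1, 198, 14.2 and 8.43 CPM in animals 1 to 5 at B and 137, 678, 954, 8.17 and 91.7 CPM at FR2. It was higher in every animal but animal 4, the groups overlapped, and the log2 fold change was 3.17 (SE 0.86, adjusted p = 0.0291). DUSP5, a phosphatase that switches off ERK, rose by 2.82 (SE 0.68, adjusted p = 0.0185), and DUSP1, its relative that acts on several MAP kinases, by 1.46 (SE 0.36, adjusted p = 0.0208). CSRNP1 rose by 1.66 (SE 0.40, adjusted p = 0.0181). Beyond these, EGR1 (2.22), IER3 (1.89), IER5 (1.66), MYC (1.27) and ZFP36L1 (1.01) were the other called members, with the log2 fold change in parentheses. Each of the 9 calls was lost without animal 1 and when all 91 libraries were fitted together. All but that of DUSP1 were also lost without animal 5. The call of ZFP36L1, close to the fold limit, was lost in 7 of 15 other settings. ATF3, with a log2 fold change of 2.17 (SE 0.91, adjusted p = 0.138), did not pass. These genes differed between animals before the injury. Animal 3 was the highest of the 5 animals at Baseline for 22 of the 27, animal 2 was the highest at FR2 for 21, and the median change over the list was 1.84, 2.07, 0.64, 0.56 and 0.58 in animals 1 to 5.

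Of 40 tested heat shock proteins and their partners, 12 were called up and none down, with a median log2 fold change of 0.45. DNAJB1, a co-chaperone that feeds unfolded proteins to HSP70, was 41.8, 72, 103, 38.9 and 39.7 CPM at B and 484, 488, 973, 128 and 354 CPM at FR2, without overlap, and its log2 fold change was 2.93 (SE 0.38, adjusted p = 0.00107). HSPA2, an HSP70 protein, rose by 3.24 (SE 0.53, adjusted p = 0.00324), and HSPH1, which recharges HSP70 with nucleotide, by 2.46 (SE 0.42, adjusted p = 0.00411). HSPA8, the constitutive HSP70, and HSP90AA1, the inducible HSP90, rose by 1.65 and 1.21. Animal 3 had the highest FR2 level of the 5 animals for 9 of the 12 called members, but it already had the highest Baseline level for 7 of them, and over all 40 members it was the highest at FR2 for 18. In animals 1 to 5 the median change of the 12 was 2.09, 0.81, 1.75, 1.01 and 1.89. Of 27 tested genes of the unfolded protein response, 25 had a log2 fold change above 0, with a median of 0.58. Of the 27, 2 were called up, beside 2.90% over all genes tested. These were HSPA5, the main chaperone of the endoplasmic reticulum, at 1.35 (SE 0.37, adjusted p = 0.0296), and PPP1R15A, which restarts translation after stress and went from 39.6 ± 45.7 to 115 ± 91 CPM (mean ± SD, n = 5, adjusted p = 0.022).

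Hypoxia inducible factor targets gave 9 members called up of 30 tested and none called down, with a median log2 fold change of 0.47. They covered the hormones and vessel signals (ADM and EPO), the glucose and lactate transporters (SLC2A1 and SLC16A3), the enzyme of pH balance CA12, the collagen hydroxylase P4HA1, the oxygen sensor EGLN3, HIGD1A and NDRG1. HIGD1A, a small mitochondrial protein, was 58, 57.3, 57.5, 106 and 62.9 CPM at B and 135, 160.3, 109, 317 and 268 CPM at FR2, without overlap, and rose by 1.49 (SE 0.32, adjusted p = 0.0114). EPO, which encodes erythropoietin, was 0, 0.175, 0.654, 0.284 and 0 CPM at B and 1.74, 7.92, 0.513, 5.39 and 3.15 CPM at FR2. It was higher in every animal but animal 3 and its log2 fold change was 4.70 (SE 1.32, adjusted p = 0.0346). CA12 had at most 2 counts in a Baseline library and 2.03, 1.1, 0.411, 3.91 and 4.66 CPM at FR2, which made it at least 7.14-fold higher at FR2 when each Baseline library is set to a floor of 3 counts. EGLN1, the main oxygen sensor, was at -0.44 (SE 0.16, adjusted p = 0.0851) and did not pass.

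In the interleukin 6 and JAK-STAT list, 10 of 33 tested members were called up and none down, with a median log2 fold change of 0.61. The ligand OSM, oncostatin M, was at most 0.654 CPM in every Baseline library and reached 8.21 CPM in animal 3 but stayed below 1 CPM in the other 4 at FR2, with a log2 fold change of 3.49 (SE 0.77, adjusted p = 0.0132). Of the receptors in the list, OSMR, the oncostatin M receptor, rose by 1.58, IL4R by 1.74 (SE 0.28, adjusted p = 0.00257) and IL1R1 by 1.06. IL4R and IL1R1 are receptors of cytokines outside the interleukin 6 family. IL6ST, the shared gp130 chain, stood at 0.61 and did not pass. STAT3 was 58.2, 37.1, 76.5, 40.6 and 66 CPM at B and 194, 143, 135, 201 and 188 CPM at FR2, without overlap, and rose by 1.65 (SE 0.29, adjusted p = 0.00438). The phosphatases that shut off JAK signaling, PTPN1 and PTPN2, both rose by 1.28. Of the transcriptional targets, SBNO2 rose by 1.79 (SE 0.27, adjusted p = 0.00193), BCL3 by 1.17 and PIM1 by 1.05.

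Of 14 tested positive acute phase proteins 3 were called up, with a median log2 fold change of 0.87. FGA, the fibrinogen alpha chain, rose from 2782 ± 700.0 CPM (mean ± SD, n = 5) to 6510.5 ± 2145 CPM, by 1.19 (SE 0.24, adjusted p = 0.00821). ITIH4, a major acute phase protein of the pig, was 4477, 1319, 1019, 844 and 1253 CPM at B and 7833, 5436, 1325, 4471 and 4776 CPM at FR2 and rose by 1.56 (SE 0.44, adjusted p = 0.0346), and LCN2, which binds bacterial siderophores, by 2.77 (SE 0.79, adjusted p = 0.0356). Animal 1 already had the highest Baseline level of the 5 animals for 8 of the 14 members. None of the 11 negative acute phase proteins was called, although all 11 had a log2 fold change below 0, with a median of -0.28, albumin at -0.42 (SE 0.38, adjusted p = 0.515) among them.

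Of 33 tested innate sensors and NF-kappaB genes, 5 were called up and none down, with a median log2 fold change of 0.20. NOD1, a sensor of bacterial cell walls, rose by 2.28 (SE 0.39, adjusted p = 0.00411), and RIPK2, the kinase it signals through, by 1.06 (SE 0.18, adjusted p = 0.00357). LITAF rose by 1.75 (SE 0.28, adjusted p = 0.00297), CARD10 by 1.88, and BCL3, shared with the list above, was the other one. The toll-like receptor gene TLR2 stood at 0.18 and did not pass. Of 15 tested chemokines and adhesion molecules, 1 was called up and 1 down, beside 2.90% and 2.43% over all genes tested. CCL2, which draws monocytes, rose by 1.60 (SE 0.43, adjusted p = 0.0292) and ITGAL, an integrin chain of lymphocytes, fell by 1.02 (SE 0.31, adjusted p = 0.0464). The ITGAL call was lost in 8 of 15 other settings, among them without each of the 5 animals in turn and without the term for the animal.

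Of 32 tested genes of apoptosis and survival, 9 were called up and none down, with a median log2 fold change of 0.47. They stood on both sides of the death decision. On the death side were the receptors TNFRSF21 at 1.69 (SE 0.26, adjusted p = 0.00236) and FAS at 1.60 (SE 0.31, adjusted p = 0.00716), and the caspases CASP4, CASP8 and CASP10 at 1.71, 1.08 and 1.92. On the survival side, MCL1 was 13, 44.2, 52.7, 26.2 and 24.8 CPM at B and 63.3, 145, 87.7, 88.9 and 77.9 CPM at FR2, without overlap, and rose by 1.61 (SE 0.25, adjusted p = 0.00236), BCL2L1 rose by 1.55, and the apoptosis regulator BFAR by 1.20 (SE 0.21, adjusted p = 0.00454). TNFRSF12A, the receptor for TWEAK, rose by 2.75 (SE 0.57, adjusted p = 0.00946).

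Wound healing genes gave 10 called up and 1 called down of 35 tested, with a median log2 fold change of 0.59. Of 7 tested members of the plasminogen system 5 were called up, namely PLAT, PLAU (1.52), the urokinase receptor PLAUR at 2.87 (SE 0.51, adjusted p = 0.00469), and ANXA2 (1.61) and S100A10 (1.06), which together form a plasminogen receptor. F3, tissue factor, rose by 1.64 and F13A1, the fibrin crosslinking chain, by 3.13. Of the coagulation factors that hepatocytes secrete, F2, F7 and F10 lay near 0, at -0.12, -0.13 and -0.03. The fibrinogen chains FGA and FGB, which hepatocytes also secrete, stood at 1.19 and 0.80, and FGA alone of that pair was called. OLR1, a scavenger receptor, rose by 1.83 (SE 0.32, adjusted p = 0.00411). PDGFC, a growth factor, was 48, 29.6, 48.2, 50.4 and 30.9 CPM at B and 18.8, 16.7, 25.2, 12.6 and 5.67 CPM at FR2, without overlap, and fell by 1.39 (SE 0.29, adjusted p = 0.00946).

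Of 41 tested genes of cell junctions and adhesion, 12 were called up and 2 down, with a median log2 fold change of 0.55. CLDN4, a tight junction claudin, was 15.9, 129.6, 72.7, 117 and 31.6 CPM at B and 125, 778, 279, 565 and 461 CPM at FR2 and rose by 2.61 (SE 0.56, adjusted p = 0.0114). Its Baseline level in animal 2 was just above its FR2 level in animal 1. The integrin chains ITGA2 and ITGA6 rose by 2.13 and 1.52, the syndecan SDC4 by 1.43 (SE 0.27, adjusted p = 0.0061), the focal adhesion scaffold BCAR1 by 1.45 (SE 0.25, adjusted p = 0.00411) and the gap junction gene GJA1 by 1.16 (SE 0.25, adjusted p = 0.0111). The hepatocyte gap junction gene GJB1 stood at -0.59 and did not pass. PGM5 and PKP4 fell, and PKP4 is listed under 2 gene identifiers of which the more abundant was used. Of the 14 adhesion and junction genes that the study singled out on these same samples 11 were called up and 3 down, and of its 11 hormone response genes 9 were called up and 2 down, which is no independent evidence of direction since the lists were chosen on these samples. Of 14 tested small GTPase and vesicle genes 6 were called up and 1 down. ARF6, which returns membrane to the cell surface, rose by 1.24, and its regulators ACAP2 and CYTH4 by 1.32 (SE 0.24, adjusted p = 0.00554) and by 2.39. The 20 tested genes of G protein signaling were split, with 3 up (RGS4, CHRM1 and LPAR6) and 3 down (PTH1R, GNB5 and ITPR1).

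**Figure D3:**
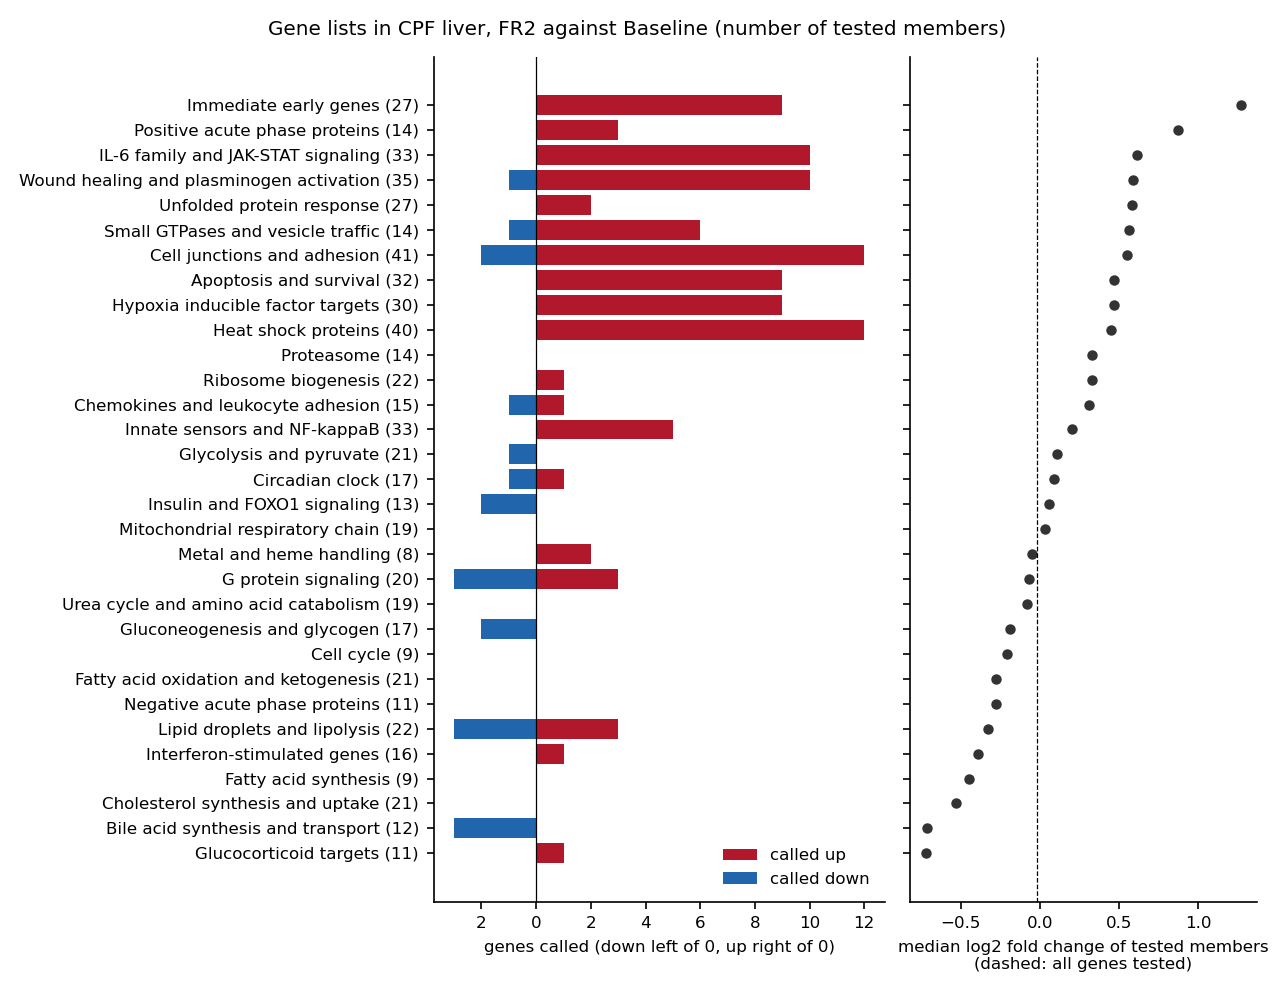
Each row is a pathway list (cell type lists and the lists taken from the study are not drawn) with the number of its tested members in parentheses; bars show how many were called up (red, right of 0) or down (blue, left of 0) at FR2 against Baseline, and points show the median log2 fold change, with the median of all genes tested (-0.02) as a dashed line. Of the lists drawn, immediate early genes had the highest median, 1.27. Heat shock and junction genes had the most members called up, 12 each, but were also the largest lists, with 40 and 41 tested. Counts of calls therefore do not rank the lists. Small GTPase genes, for example, had 6 of 14 called up.

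The calls in the lists of metabolic genes were mostly falls. FOXO1 was 124, 75.7, 64, 45.1 and 110.2 CPM at B and 18.8, 38.4, 40.6, 17.2 and 15.5 CPM at FR2 in animals 1 to 5, without overlap, and fell by 1.75 (SE 0.49, adjusted p = 0.0343). GRB14, an inhibitor of the insulin receptor, fell by 1.04 (SE 0.29, adjusted p = 0.0324). These were the calls among 13 tested insulin and FOXO1 genes, whose median was 0.06, and the FOXO1 targets PCK1 and IGFBP1 stood at 0.39 and 0.10. Of 17 tested genes of gluconeogenesis and glycogen 2 were called down. PHKA2, a regulatory subunit of the kinase that activates glycogen breakdown, fell by 1.14 (SE 0.19, adjusted p = 0.00357). Of 21 tested genes of glycolysis and pyruvate use 1 was called down, beside 2.43% over all genes tested, which says little about that list. It was PDK2, a kinase that turns pyruvate dehydrogenase off, which fell by 1.13 (SE 0.34, adjusted p = 0.0466). The PDK2 call was lost in 6 of 15 other settings.

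Lipid droplet and glycerolipid genes were split, with 3 of 22 called up and 3 down. PLIN2, which coats lipid droplets, was 24.9, 56.5, 45.9, 51.8 and 21.6 CPM at B and 194, 396, 137, 753 and 764 CPM at FR2, without overlap, and rose by 3.35 (SE 0.61, adjusted p = 0.00554). ABHD5, which activates the droplet lipase, rose by 1.75 (SE 0.31, adjusted p = 0.00438) and was higher in every animal but animal 3. GPAM, which starts glycerolipid synthesis, was 271, 223, 228, 263 and 111 CPM at B and 34.8, 49.7, 104, 125 and 35.7 CPM at FR2 and fell by 1.70 (SE 0.49, adjusted p = 0.038). LPCAT3 rose by 1.27 (SE 0.37, adjusted p = 0.0371) while LPCAT4 fell by 1.47 (SE 0.29, adjusted p = 0.00718) and GDPD1 fell by 2.97 (SE 0.75, adjusted p = 0.0225), the last from a Baseline of at most 2.65 CPM.

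Bile acid genes had 3 called down of 12 tested and none up, with a median log2 fold change of -0.71. CYP7A1, the rate-limiting enzyme of bile acid synthesis, was 206, 135, 138, 103 and 116 CPM at B and 74.1, 29.2, 66.2, 20.2 and 13.9 CPM at FR2, without overlap, and fell by 1.85 (SE 0.53, adjusted p = 0.0379). FGFR4 and KLB, the receptor pair through which the gut hormone FGF19 acts on hepatocytes, fell by 1.06 (SE 0.27, adjusted p = 0.0236) and by 1.68 (SE 0.46, adjusted p = 0.0307). In cholesterol synthesis and uptake none of 21 tested genes was called, although 20 of 21 had a log2 fold change below 0, with a median of -0.53. The animals differed here, since the median change over that list was -0.89, 0.17, -0.32, -0.42 and -1.15 in animals 1 to 5. None was called of 21 tested genes of fatty acid oxidation (median -0.28), 9 of fatty acid synthesis (median -0.45) or 19 of the urea cycle and amino acid breakdown (median -0.08). Of 17 tested clock genes, 1 was called up and 1 down, beside 2.90% and 2.43% over all genes tested. They were BHLHE40 at 1.33 (SE 0.38, adjusted p = 0.0365) and NR1D2 at -1.27 (SE 0.33, adjusted p = 0.0233).

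Markers of other cell types were followed in the same libraries. The 12 neutrophil markers matched together made up 13.2 to 18.5 CPM at B and 31.2, 114, 38, 29.8 and 19.8 CPM at FR2 in animals 1 to 5, so the sum was higher at FR2 in 5 of 5 animals and highest in animal 2. Of the 7 tested, S100A8, S100A9, S100A12 and LTF rose, and PRAM1, whose identifier the other source of symbols names ZNF414, fell. S100A9, which with S100A8 forms the calprotectin of neutrophil cytosol, was 0, 1.93, 0.28, 1.42 and 0 CPM at B and 5.02, 45.7, 13.4, 7.47 and 5.17 CPM at FR2 and rose by 4.44 (SE 0.74, adjusted p = 0.00357), and S100A12 rose by 5.10 (SE 0.78, adjusted p = 0.00219). CSF3R, the neutrophil growth factor receptor, was at 0 in all 10 libraries, and markers under the filter on low values, CXCR2 among them, were not tested. OSM and LCN2 are also made by neutrophils, and the part of these cells in their rise was not tested. The summed level of 7 bile duct markers was 78.9 to 211 CPM at B and 262 to 935 CPM at FR2, which was mostly CLDN4, whose values are given above, and SPP1 rose by 1.54 (SE 0.36, adjusted p = 0.0153), while the defining markers EPCAM, SOX9 and CFTR stood at 0.65, 0.24 and 0.10 and did not pass.

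The erythroid gene HBB, a globin chain, was 79.4, 187, 151, 198 and 176 CPM at B and 404, 299, 381, 420.0 and 229.9 CPM at FR2, without overlap, but its log2 fold change of 1.17 (SE 0.60, adjusted p = 0.225) did not pass. Stellate cell and fibroblast markers summed to 750.0 to 1436 CPM at B and 405 to 803 CPM at FR2, a sum made up mostly of the collagens COL3A1 and COL1A2, with means of 603 and 226 CPM at B. Of 12 tested, 4 had a log2 fold change above 0, PDGFRB at 0.59 and TAGLN at 0.29 among them, the median was -0.39, and 3 were called down. MXRA8 fell by 1.26 (SE 0.24, adjusted p = 0.00714) and THY1 fell by 1.12 (SE 0.25, adjusted p = 0.0134). COL1A2 fell by 1.00 (SE 0.21, adjusted p = 0.011), which is at the fold limit, and its call was lost in 11 of 15 other settings, RLE size factors, DESeq2, no animal term and leaving out animals 1, 3, 4 or 5 among them. ISLR, described above, is also a mesenchymal gene, and the part of these cells in its fall was not tested. Of 12 endothelial markers, with a median of -0.30, 2 were called down, STAB1 by -1.51 (SE 0.35, adjusted p = 0.0149) and TMEM204 by -1.56 (SE 0.27, adjusted p = 0.00411). The sinusoidal marker LYVE1 was higher in 5 of 5 animals, at 0.73 (SE 0.22, adjusted p = 0.0434), which is under the fold limit, and PECAM1 stood at -0.02. CX3CR1, a receptor of patrolling monocytes, fell by 1.95 (SE 0.54, adjusted p = 0.0332). None of the 11 hepatocyte markers, 8 macrophage markers, 9 T and NK cell markers or 2 B cell markers tested was called, and all 9 T and NK cell markers had a log2 fold change below 0, with a median of -0.67.

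The fasted animals offered a comparison with no library in common. In 3 of the 18 FS animals the Baseline library held albumin at 0.197, 52.7 and 0.312 CPM, against at least 59450 CPM in every other Baseline library, and those 3 animals were left out. In the other 15, 1676 of 13531 genes were called at FR2 against B (12.4%), 724 up (5.35%) and 952 down (7.04%). Of the 342 genes called up in CPF animals, 253 were also called up in FS animals, which is 74.0% of the CPF list and 34.9% of the FS list. Of the 286 called down, 187 were called down in FS animals, 65.4% of the CPF list and 19.6% of the FS list. In total 341 of 342 and 286 of 286 had the same sign in FS animals, where their median log2 fold changes were 1.40 and -1.17. With all 18 FS animals the genes called in both fell to 209 up and 109 down. Across the 11779 genes in both fits the log2 fold changes had a Pearson correlation of 0.81. This is across genes, which are not independent replicates.

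The test of the difference itself, the CPF change minus the FS change, called 1 of 13531 genes (0.00739%), with 515 at an unadjusted p under 0.05. DESeq2 called 1 gene as well. That gene, ENSSSCG00000024378, carries no symbol. It had at most 6 counts in any CPF library at B and at most 2 at FR2, its log2 fold change was 1.33 in FS animals, and the difference was -4.58 (SE 0.87, adjusted p = 0.0321). It was no longer called without animals 2, 3, 4 or 5 in turn, with all 91 libraries, with the Baseline and FR2 libraries alone, or without the term for the animal. Named genes on either side of that test were not called. SHROOM3, which shapes the actin cytoskeleton, was -1.04 (SE 0.32, adjusted p = 0.0528) in CPF and 0.27 (SE 0.17, adjusted p = 0.198) in FS animals, and CCN1, a matrix protein that injury induces, was 0.92 (SE 0.33, adjusted p = 0.086) in CPF and -0.42 (SE 0.20, adjusted p = 0.0772) in FS animals. Neither difference passed, both at an adjusted p of 1. FOS and DUSP1 had a log2 fold change of 3.17 and 1.46 in CPF animals and 1.08 and 0.12 in FS animals, with differences of 2.10 (SE 1.10, adjusted p = 1) and 1.36 (SE 0.55, adjusted p = 1). No difference between prefed and fasted liver was shown for a gene with a symbol, which does not show that the changes were alike. FS animals were screened on Baseline albumin alone. An FS animal kept in this test had counts for 11882 genes at FR2, and the next lowest FS animal for 13582. Among the FS libraries at FR2, the lowest level of FGB, a fibrinogen chain, was 0 CPM beside a median of 8082 CPM. The lowest of COL1A2 and THY1 was 0 CPM too. Whether these zeros came from that animal, and the difference without it, was not tested.

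**Figure D4:**
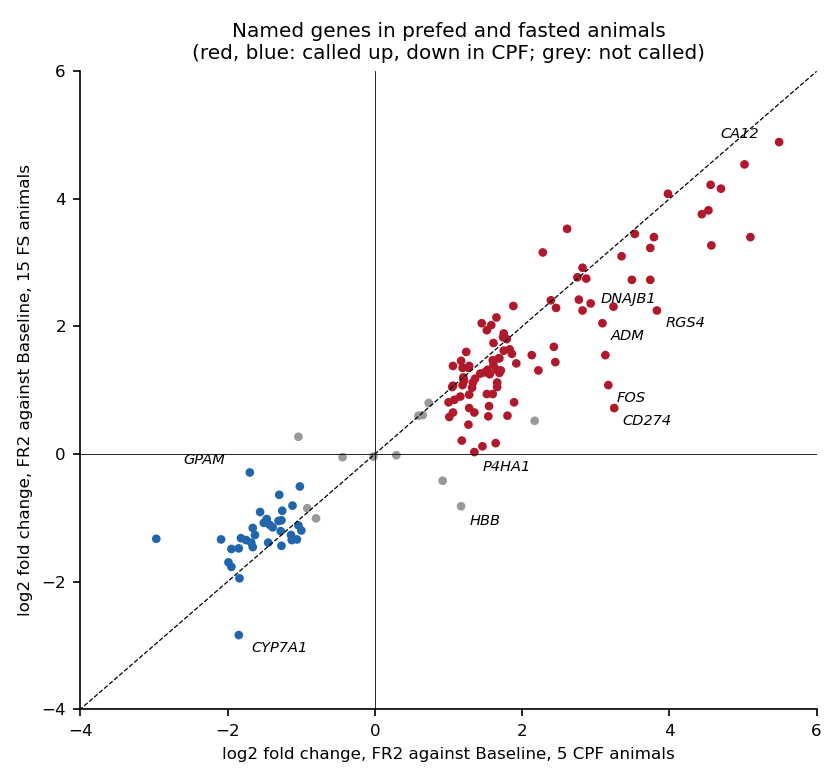
Each point is a gene named in the text, with its log2 fold change of FR2 against Baseline in 5 CPF animals on the x axis and in 15 FS animals on the y axis; the dashed line marks equal change, and colors mark genes called up (red), called down (blue) or not called (grey) in CPF animals. The called genes plotted have the same sign in both groups, and FOS, at 3.17 in CPF and 1.08 in FS animals, lies below the line.

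Later biopsies of the same animals showed how long the 2 hour levels lasted. FR8 and FR2 were compared in the same fit of 19 CPF libraries. The FR8 library of animal 1, with 4388 counts, was left out by the study, so 4 animals had both libraries. The other libraries of animal 1 stayed in the fit. Of 11779 genes, 1286 were called (10.9%), 602 higher (5.11%) and 684 lower (5.81%) at FR8. This contrast shares the FR2 libraries with the one above, so only the values of named genes are set beside it. It rested on animals 2 and 5 in particular, with 821 calls without the one and 743 without the other. Without any library of animal 1 it gave 1078 calls, 1010 of them among the 1286. The FR2 and FR20 means below cover 5 animals and the FR8 means 4, without animal 1, while the differences come from the fit. ADM stood at 53.1 ± 14.3 CPM (mean ± SD) at FR2, 12.2 ± 6.16 at FR8 and 9.32 ± 6.83 at FR20, and FR8 minus FR2 was -2.40 (SE 0.35, adjusted p = 0.000634). PALM3, low at FR2 with 16.7 ± 3.3 CPM, was 59.5 ± 21.1 CPM at FR8, a difference of 1.75 (SE 0.23, adjusted p = 0.000356), and ETV1 differed by 1.53 (SE 0.20, adjusted p = 0.000293). DUSP1 differed by -2.61 (SE 0.42, adjusted p = 0.00118), IL4R by -1.27 (SE 0.29, adjusted p = 0.0085) and CX3CR1 by 3.07 (SE 0.59, adjusted p = 0.00307). ADM, DUSP1 and IL4R thus stood lower, and ETV1, PALM3 and CX3CR1 higher, at 8 than at 2 hours.

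Other 2 hour levels were not shown to differ by 8 hours. STAT3 was 172 ± 30.9 CPM at FR2 and 211 ± 118 CPM at FR8, SLC39A14 793 ± 289 and 815 ± 142 CPM, PLIN2 449 ± 299 and 491 ± 306 CPM, and DNAJB1 485 ± 309 and 265 ± 80.2 CPM, with differences of 0.14 (SE 0.31, adjusted p = 0.79), 0.11 (SE 0.25, adjusted p = 0.795), -0.15 (SE 0.62, adjusted p = 0.892) and -0.53 (SE 0.40, adjusted p = 0.376). FOXO1, low at FR2, differed by -0.24 (SE 0.51, adjusted p = 0.78), and CYP7A1 was 40.7 ± 27.6 CPM at FR2 and 21.3 ± 19.9 CPM at FR8, which did not pass the test (adjusted p = 0.26). At FR20 STAT3 was 104 ± 52.1 CPM, SLC39A14 390.0 ± 66.3 CPM, PLIN2 269 ± 190.4 CPM and DNAJB1 81.7 ± 44.3 CPM, beside 55.7 ± 16.7, 240.0 ± 31.7, 40.2 ± 15.9 and 59.1 ± 28.3 CPM at B. FR20 was not tested against B here, and the study reported no significant gene for it in CPF animals. Positive acute phase genes did not all go the same way from FR2 to FR8. FGA was higher at FR8 by 1.00 (SE 0.25, adjusted p = 0.0123) with 12258 ± 3344 CPM. ITIH4 was higher by 1.49 (SE 0.46, adjusted p = 0.0326) with 12089 ± 8168 CPM at FR8. LCN2 differed by 0.35 (SE 0.72, adjusted p = 0.772), and ITIH3 was lower at FR8, at -0.92 (SE 0.22, adjusted p = 0.00909). SERPINA6, which encodes the cortisol carrier of plasma, stood at -0.80 (SE 0.46, adjusted p = 0.279) from B to FR2 and FR8 minus FR2 was -2.83 (SE 0.54, adjusted p = 0.00295), the lower level being at FR8.

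**Figure D5:**
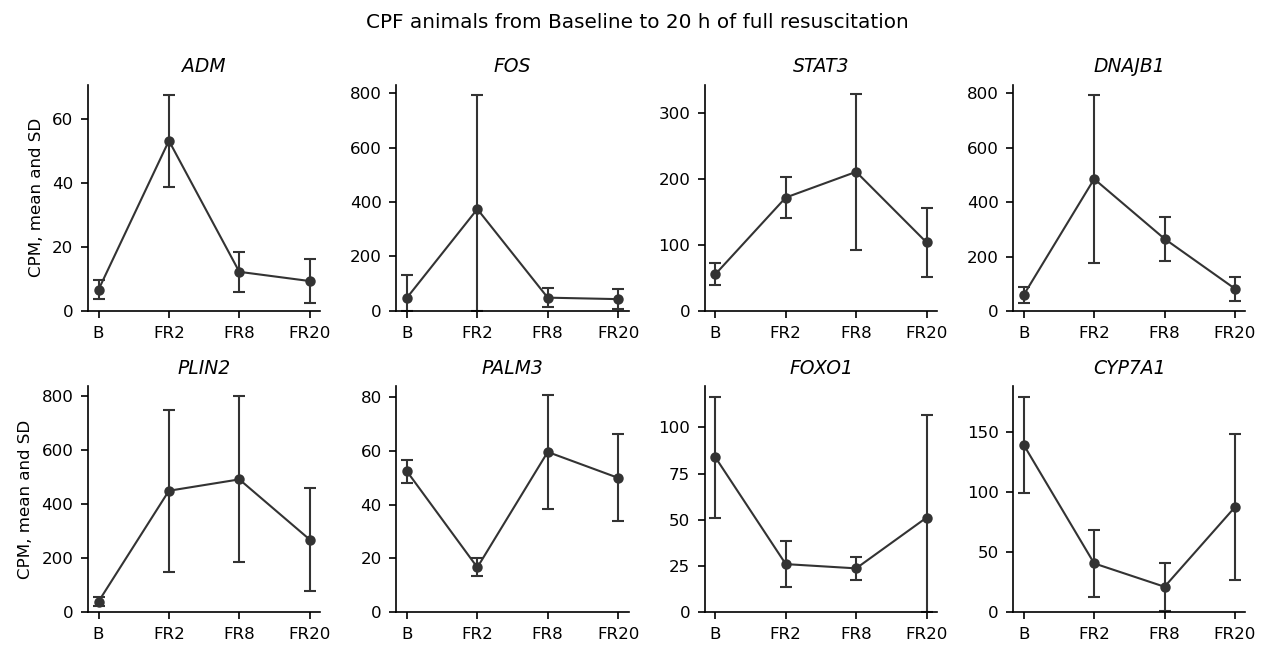
Each panel is 1 gene in CPF animals, with mean CPM and SD bars (cut at 0) at B, FR2, FR8 and FR20, where n is 5, 5, 4 and 5 libraries; time points are evenly spaced and not to scale. ADM and FOS were high at FR2 alone among these means and PALM3 was low at FR2 alone. STAT3 and PLIN2 were high at FR2 and FR8. Their FR20 means (104 and 269 CPM) were above those at B (55.7 and 40.2 CPM), a difference that was not tested.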

How the data were processed

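RNA-seq libraries were made from 92 liver biopsies of 23 pigs. The deposited table holds whole-number counts per gene for 25322 gene identifiers, and the authors aligned and counted the reads before depositing it. The submitters' processing notes name CASAVA 1.8.2, TopHat 1.5.0, SAMtools, HTSeq and edgeR 3.2.4 with the build Sscrofa10.2. A gene name table, together with names printed in the study's supplement, gave 12503 identifiers a symbol, and 107 symbols differed between those sources. The kit does not mark strand, so overlapping genes on opposite strands cannot be told apart. No coordinates are given, as no annotation of the build was used here.

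The 19 CPF libraries with reads (7182282 to 13839006 counts) were fitted alone in edgeR 4.0.16 (R 4.3.3) with the quasi-likelihood test, TMM scaling, a term for each animal and Benjamini-Hochberg adjustment, keeping genes whose CPM summed to at least 10. The FR8 library of animal 1, with 4388 counts, was omitted. Genes were called at an adjusted p under 0.05 and a log2 fold change of at least 1 in size. Pairing came from the animal code in the titles. The deviations of the B and FR2 libraries from their group means correlated at 0.27 to 0.48 for the same animal, and over 0.1 in 5 of 5 animals, against -0.26 to 0.17 for 20 pairs of different animals. The fasted fit and the test of the difference used 15 FS animals. CPM values use TMM-scaled library sizes, changes per animal use log2 CPM with a prior count of 2, and a gene at 3 counts or fewer was treated as at the floor. Counts of this size have sampling error that is small for abundant genes and large near the floor. Scripts were tested on simulated data.

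Alternatives were RLE size factors, other filters, DESeq2 1.42.0, the likelihood ratio test, other sets of libraries, no animal term and leaving out each animal. Genes were named by a rule: of called genes that carry a symbol and went in 1 direction in 5 of 5 animals, the 8 rises and 8 falls with the smallest p and, at a mean of at least 5 CPM, the 8 largest; up to 3 called members per list and direction with its extremes; the 3 on each side of the difference with the smallest p; and genes the study names. Some genes that the rule picks are not reported here. Other called list members, and members given for contrast, were named after their values were seen. The members and gene lists were chosen with earlier results of these data known. In the lists, a symbol with several identifiers is represented by the most abundant of them, and reads may be split between them. Such symbols among those named include DNAJB1, PLIN2, COL1A2, FGA, FGB, ITPR1 and PKP4. NETO2, named outside the lists, also has 2 identifiers.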

Additional observations from a re-analysis of the deposited data

Results flagged for a closer look

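For each of the 141 genes named in the text and in the table of named genes, the 5 Baseline and the 5 FR2 libraries of CPF animals were searched for a library whose gap to its nearest neighbour took up most of the group's range on the log2 CPM scale. A library stood apart in 18 of 282 groups, and chance gives about 1 in 20. On CPM that was not logged it would have been 38 groups, so the choice of scale sets this count. The rule weighs the gap against the group's own range, so a library can stand apart by a small amount. At Baseline EGLN1 ran only from 16.3 to 26.4 CPM, for example. At Baseline, animal 3 stood apart above the others for ATF3 with 371 CPM, FGF23 with 13.9 CPM and CA12 with 0.187 CPM. At Baseline animal 4 stood apart above the others for ATP2B2 with 13.9 CPM, DCPS with 190.1 CPM and HIGD1A with 106 CPM, and below them for KLB with 6.95 CPM and P4HA1 with 22.4 CPM. Animal 1 stood apart above at Baseline for ITIH4 with 4477 CPM and LCN2 with 18.6 CPM. Animal 5 stood apart below at Baseline for CASP10 with 0.259 CPM and GPAM with 111 CPM, and animal 2 for EGLN1 with 16.3 CPM. At FR2, animal 3 stood apart above for OSM with 8.21 CPM, animal 5 for PIM1 with 202 CPM and animal 2 for S100A8 with 17.2 CPM. Animal 1 stood apart below at FR2 for PALM3 with 11.1 CPM and PECAM1 with 52.1 CPM.

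1 result differed between the fed states by a test of the difference itself. For ENSSSCG00000024378, a gene without a symbol, the change from Baseline to FR2 gave a log2 difference, CPF minus FS, of -4.58. Its counts, and the settings under which it was no longer called, are given with the comparison of prefed and fasted animals.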

How the results depend on the processing

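The number of genes called at FR2 against Baseline was 628. It was 99 when all 91 libraries were fitted together, of which 97 were among the 628, and 1160 with the adjusted p alone. Leaving out 1 animal gave 119 to 723 calls, with 203 without animal 1, 399 without animal 2 and 119 without animal 5. The pairing was used as a block for each animal, and without it 470 genes were called, 450 of them among the 628. RLE size factors, both other filters, no filter, DESeq2, the likelihood ratio test, the 10 libraries alone and the omitted FR8 library gave 616 to 833. In each of these settings every one of the 628 genes that was tested kept its direction, which their selection on these same libraries largely sets. Of 151 called genes in the table of named genes, 32 were called under every setting, 98 lost the call with all 91 libraries, 39 without the block, and 78, 53, 18, 17 and 96 without animals 1 to 5. The difference between fed states gave 1 call, and 0 with Baseline and FR2 libraries alone, with all 91 libraries and without the block, and 0 to 1 when 1 CPF animal was left out. FR8 against FR2 gave 1286 calls, 2304 with the adjusted p alone, 921 without the block and 743 to 1211 when 1 animal was left out. List medians stayed within 1 SD of the animals in 642 of 645 comparisons. The exceptions were 0.40 for the innate list without animal 3 and again without animal 4, and -0.28 for platelet markers with the Baseline and FR2 libraries alone. PECAM1, at a log2 fold change of -0.02, changed sign at 0.00 with the omitted FR8 library and ran from -0.03 to 0.02 when 1 animal was left out. With 5 animals and 1 biopsy each, changes in genes near the floor are not well measured. The cause of these shifts was not tested.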

Other observations

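Several gene groups that no comparison above describes were also measured at FR2 against Baseline in the 5 CPF animals. Of 22 tested genes of ribosome biogenesis, 21 had a log2 fold change above 0 with a median of 0.33, and BYSL, which matures the small ribosomal subunit, was called up. Of 14 tested proteasome subunits 13 lay above 0, also with a median of 0.33, and none was called. The 19 tested genes of the mitochondrial respiratory chain had a median of 0.03 and none was called, and neither was any of 9 tested cell cycle genes, whose median was -0.21. Of 16 interferon-stimulated genes CD274, the gene of the checkpoint ligand PD-L1, was called up at 3.25 (SE 0.63, adjusted p = 0.00682), while the median of the list was -0.39. Of 8 tested metal and heme genes SLC39A14 and the zinc exporter SLC30A1 were called up, with a median of -0.05. Of 11 tested glucocorticoid targets DUSP1 was the 1 gene called up and the median was -0.72. The 2 tested platelet markers had a median of 0.23 and neither was called. Over all genes tested 2.90% were called up, so a single call up in lists of these sizes says little about the list.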
